A study of Mus musculus with 12 samples.

Results

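The 10 genes described here encode the receptor of hepatocyte growth factor (HGF), the ligand, and proteins that activate or relay the signal: Met, its adaptor Gab1, Hgf, the proteases Hgfac, Hpn and St14, the protease inhibitors Spint1 and Spint2, and the paralogous pair Mst1 and Mst1r. They were chosen by symbol in the platform annotation, which gave 1 probe set for each of the 10 genes among 15780 probe sets with a gene symbol. A gene was tested where its log2(intensity + 1) was at least 4 on at least 3 arrays. Met, Gab1, Hgfac, Hpn, Spint2 and Mst1 passed this filter, and Hgf, St14, Spint1 and Mst1r did not. Gab1 lay close to the filter, at or above 4 on 9 of 12 arrays.

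HGF is secreted as an inactive single chain, mostly by cells other than hepatocytes, and becomes a ligand of Met after cleavage by serine proteases. Met is a receptor tyrosine kinase that recruits docking proteins such as Gab1 and drives hepatocyte survival, growth and regeneration. Macrophage stimulating protein, encoded by Mst1 and made by hepatocytes, is built like HGF and binds a separate receptor, Ron, the product of Mst1r.

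The arrays measured total RNA of whole mouse liver in 4 groups of 3 animals. Knockout livers (c-MetDhepa, a hepatocyte deletion of Met) were taken 2 h after 2 µg recombinant mouse HGF and without HGF, and control livers (c-MetloxP/loxP, carrying the floxed alleles that the knockouts carry too) were taken in the same 2 states. Deletion was driven by Alfp-Cre, active from embryonic development, or by Alb-Cre, active after birth; the labels do not say which transgene an array represents, and liver cells in which the transgene is silent keep Met. Age and sex are not given in the sources used here. The treatment protocol names HGF or NaCl injected intraperitoneally but also a state before injection, so the unstimulated livers may or may not have had an injection. An HGF effect below sets livers labelled as stimulated against those labelled as unstimulated, whatever the second received.

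Knockout arrays did not all sit with the HGF state on their labels. Each array was placed on an index computed from the 6683 tested probe sets, with controls without HGF averaging 0 and controls with HGF averaging 1. By this response index knockouts labelled with HGF lay at 0.32, 0.02 and 0.94 (replicates 1 to 3, the order used for all values below) and those labelled without HGF at 0.12, 0.98 and 0.04. Both knockout replicate 2 arrays thus stood against their HGF labels. Whether the labels of these 2 arrays were exchanged could not be settled, and the HGF effects in knockouts, the interactions and the knockout effects within 1 HGF state would all read differently if they were. Main results are also given without the 2 arrays. Since the arrays were picked by their response, HGF effects in knockouts and interactions without them are printed as values with no test, and the other p-values without them carry the same choice. Controls run as arrays 1 to 6 and knockouts as arrays 7 to 12, so genotype and array order cannot be told apart. Hepatocyte markers were high on every array, with 8 of 8 measured markers past the filter, while 0 of 6 cholangiocyte and 0 of 5 lymphocyte markers passed.

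Promoter sequences of 4 of the genes are shown because the results turn on them: Met and Gab1, which varied together across the knockout arrays, and Hgfac and Mst1, which had the largest differences between genotypes and between HGF effects. Each is the sequence from 250 bases before to 50 bases after a RefSeq start (GRCm38.p6), 5′ to 3′ on the gene's strand, with motif matches in capitals. Met lies at chr6:17463707-17464006 (+), Gab1 at chr8:80880470-80880769 (-), Hgfac at chr5:35041259-35041558 (+) and Mst1 at chr9:108080186-108080485 (+); of 2 Gab1 starts in the table, the first listed is shown.
Met: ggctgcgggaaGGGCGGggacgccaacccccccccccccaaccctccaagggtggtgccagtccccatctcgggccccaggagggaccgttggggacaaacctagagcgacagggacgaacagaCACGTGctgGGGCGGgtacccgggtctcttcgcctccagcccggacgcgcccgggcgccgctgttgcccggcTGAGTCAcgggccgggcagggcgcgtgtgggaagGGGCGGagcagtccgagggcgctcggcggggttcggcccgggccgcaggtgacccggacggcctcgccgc
Gab1: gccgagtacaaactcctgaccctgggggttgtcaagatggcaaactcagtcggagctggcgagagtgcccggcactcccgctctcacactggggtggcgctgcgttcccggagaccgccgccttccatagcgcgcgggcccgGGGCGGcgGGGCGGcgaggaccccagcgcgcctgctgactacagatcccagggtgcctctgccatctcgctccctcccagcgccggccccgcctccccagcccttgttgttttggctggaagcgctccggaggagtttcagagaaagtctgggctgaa
Hgfac: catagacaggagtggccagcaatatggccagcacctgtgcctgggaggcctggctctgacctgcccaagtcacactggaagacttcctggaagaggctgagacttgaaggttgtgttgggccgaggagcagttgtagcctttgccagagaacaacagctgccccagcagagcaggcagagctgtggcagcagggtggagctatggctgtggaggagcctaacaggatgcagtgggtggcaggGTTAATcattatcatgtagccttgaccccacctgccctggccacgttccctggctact
Mst1: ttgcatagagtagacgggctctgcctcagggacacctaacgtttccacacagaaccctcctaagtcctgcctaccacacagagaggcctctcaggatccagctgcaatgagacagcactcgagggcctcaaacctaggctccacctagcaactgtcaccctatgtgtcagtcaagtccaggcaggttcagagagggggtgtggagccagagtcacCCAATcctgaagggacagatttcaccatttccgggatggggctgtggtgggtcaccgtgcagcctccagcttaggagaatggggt

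The letters of 7 motifs were searched on both strands. The Met window held an E-box (CACGTG, the site of clock and Myc family factors) whose first base lies at -126, an AP-1 site (TGANTCA) at -54 and 3 GC boxes (GGGCGG) at -239, -117 and -20. The Gab1 window held 2 GC boxes, at -108 and -100, the Hgfac window an HNF1 half-site (GTTAAT) at -8 and the Mst1 window a CCAAT box at -35. Of 27025 promoters of the same length, 7.24% held the E-box, 7.93% the AP-1 site, 35.9% the GC box, 7.20% the HNF1 half-site and 37.9% the CCAAT box. The D-box of PAR bZIP factors (TTATGTAA or TTACGTAA), held by 1.06%, and an NF-kappaB motif, held by 0.385%, had no match in the 4 windows. No match overlapped another. Met and Gab1 thus had the GC box in common among these motifs, and their windows were GC-rich, at 75.7% and 68.0% against a median of 52.7% over all promoters.

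For Met, the receptor and the target of the knockout, no lower level was detectable in knockout livers. Its log2 level was 6.61, 7.40 and 6.29 in knockouts with HGF and 7.06, 6.68 and 7.18 in knockouts without HGF. In controls it was 6.59, 6.78 and 7.02 with HGF and 6.62, 6.84 and 6.77 without HGF. The knockout arrays enclosed the control range, with 3 of 6 above all controls and 1 of 6 below them. The difference averaged over both conditions was 0.10 (SE 0.18, 95% interval -0.30 to 0.50, limma adjusted p = 0.872), and it was 0.016 without both knockout replicate 2 arrays. The position of the Met probes in the gene is not given here, and a probe that lies outside the deleted exons cannot check the deletion. Cells without Cre also keep the gene, and in bulk tissue fewer cells of a type and less RNA per cell cannot be told apart.

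Gab1, the docking protein that carries Met signals to the PI3-kinase and ERK routes, had the widest spread of the 6 tested genes. Its levels were 4.22, 5.12 and 3.60 in knockouts with HGF and 5.06, 3.81 and 4.60 in knockouts without HGF. Control livers had 4.15, 3.78 and 4.02 with HGF and 4.15, 4.17 and 4.29 without HGF. The knockout arrays fell on both sides of the controls, with 3 of 6 above and 1 of 6 below all control arrays, and the averaged knockout difference was 0.31 (SE 0.26, limma adjusted p = 0.729). In controls, the 3 arrays with HGF all lay below the 3 without, by -0.22 on average (SE 0.37, limma adjusted p = 0.777); 4 of the 6 tested genes had groups that did not overlap in this comparison, where 37.7% of all tested probe sets did the same.

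**Figure D1:**
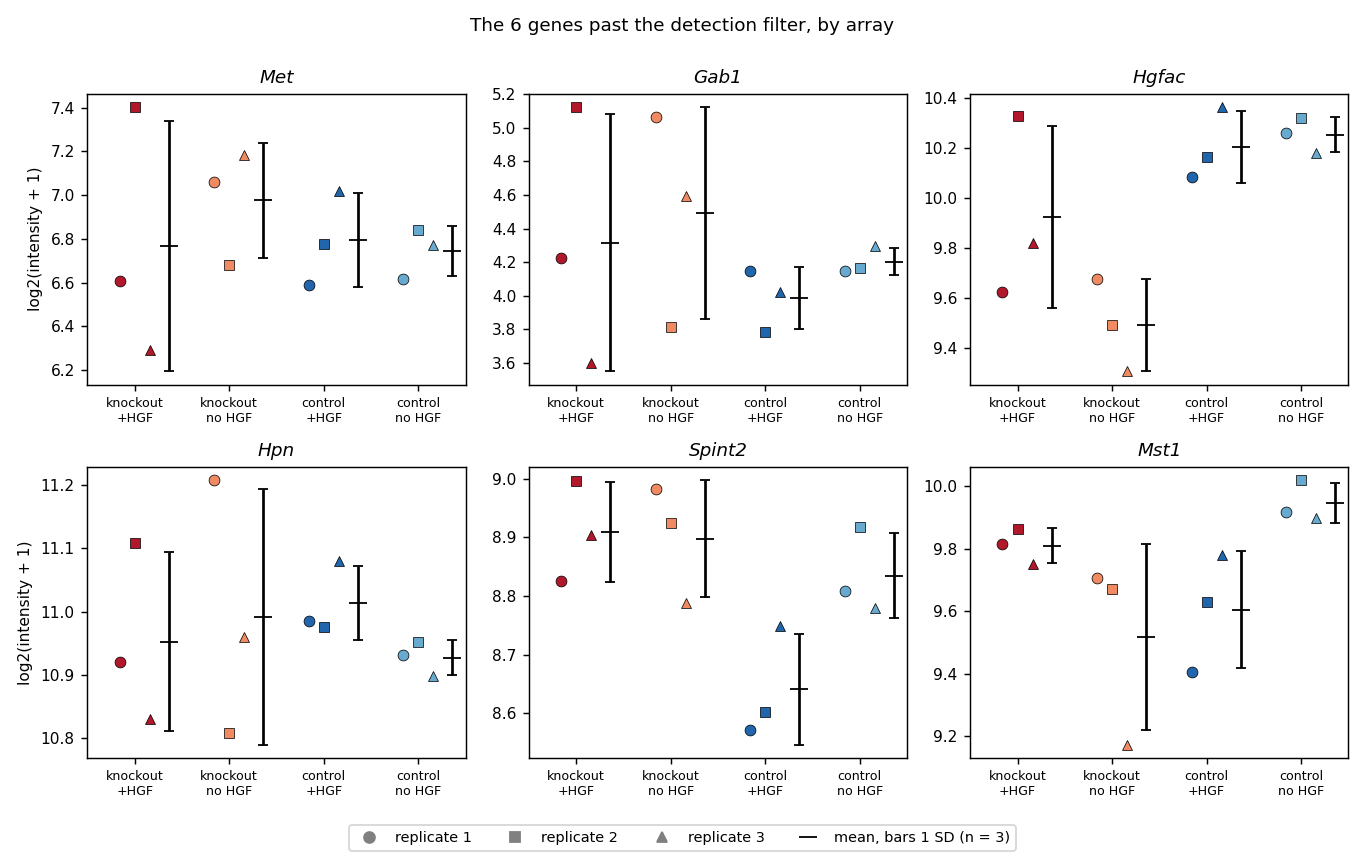
Log2(intensity + 1) of the 6 tested genes on each array, with 1 point per liver by group and replicate and the mean with 1 SD beside them (n = 3). Hgfac lies below all controls on 5 of 6 knockout arrays, while Met and Gab1 spread widely among the knockouts.

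Met and Gab1 were high and low on the same knockout arrays. Met reached its highest level, 7.40, on knockout replicate 2 with HGF, where Gab1 was also at its highest, 5.12. Both were lowest on knockout replicate 3 with HGF, at 6.29 for Met and 3.60 for Gab1. The SD over the 6 knockout arrays was 0.41 for Met and 0.63 for Gab1, against 0.16 and 0.17 over the 6 control arrays. The ratio of these SDs was 2.65 for Met and 3.63 for Gab1, at percentiles 93.8 and 97.5 of all tested probe sets, whose median ratio was 1.08. Hgfac (ratio 3.31) and Hpn (2.53) also varied more among knockouts, while the ratio was 1.11 for Mst1, near the median, and 0.64 for Spint2.

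Met and Gab1 were higher on the knockout arrays at the low end of the response index than on those at the high end. The 3 knockout arrays with the lowest response index, 0.02, 0.04 and 0.12, had Met at 7.40, 7.18 and 7.06 and Gab1 at 5.12, 4.60 and 5.06. The 2 arrays at 0.94 and 0.98 had Met at 6.29 and 6.68 and Gab1 at 3.60 and 3.81. The remaining one, knockout replicate 1 with HGF at 0.32, had Gab1 between these at 4.22, but its Met level of 6.61 lay below that of the array at 0.98. Transcripts of Dbp, a PAR bZIP factor that oscillates over the day, were at 11.05, 10.72 and 10.72 on the first 3 and at 2.81 and 2.92 on the other 2, in the same order. The neutrophil chemokine gene Cxcl1 ran the other way, at 7.26, 6.42 and 7.23 on the first 3 against 11.58 and 11.70. The index weights each tested probe set by its HGF difference in controls. Met, Gab1, Dbp and Cxcl1 are among these probe sets, so their order along the index is not independent of it. For Cxcl1, with a large difference in controls, the order is in part built in. The knockout array at 0.32 had Dbp at 5.09 and Cxcl1 at 10.94. Control arrays at -0.06 to 0.07 had Dbp between 5.91 and 7.50 and Cxcl1 between 5.00 and 6.84. Those at 0.88 to 1.06 had Dbp between 2.61 and 5.21 and Cxcl1 between 11.56 and 11.78. Dbp on the 3 knockout arrays at 0.02 to 0.12 thus lay above every control, including those at a similar index. In controls, Met did not follow the index: it was at 6.59 to 7.02 on the arrays at 0.88 to 1.06 and at 6.62 to 6.84 on those at -0.06 to 0.07. The summed intensity of neutrophil markers, of which 3 of 7 passed the filter, spanned 37.0 to 1267 in knockouts with HGF and 52.7 to 1278 in knockouts without HGF, against 786 to 2877 in controls with HGF and 45.4 to 102.9 in controls without HGF. The part of Dbp, Cxcl1 or neutrophil content in these levels was not tested.

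**Figure D2:**
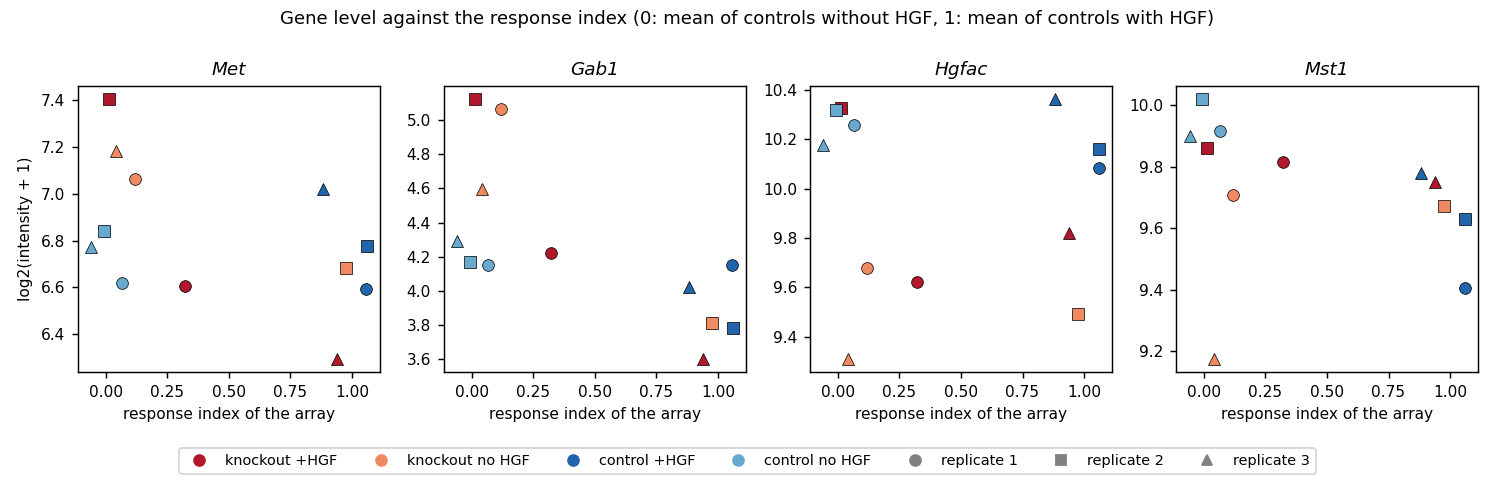
Log2(intensity + 1) of Met, Gab1, Hgfac and Mst1 against the response index of each array, with colours for groups and marker shapes for replicates. Met and Gab1 are highest on the 3 knockout arrays with an index of 0.02 to 0.12, and Hgfac lies below the controls on every knockout array except replicate 2 with HGF.

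Over all 12 arrays, the tested genes with the profile most like Met were Fbxl20 (Pearson r = 0.94), 1600014C10Rik (r = 0.94) and Ypel3 (r = 0.93). Those most like Gab1 were Coq10a, Gna12 and Phkg2 (r = 0.97 each). Those most like Hgfac were Pml (r = 0.92), Pglyrp2 (r = 0.91) and Arsg (r = 0.90). These are descriptions, since the 12 arrays share the same large swings and each list holds the highest values among 6683 probe sets.

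No gene of the 6 passed limma at an adjusted p under 0.05 in any of the 6 contrasts. For the HGF effect in knockouts 0 of 6 passed, where 0.00% of all tested probe sets were called, and 1 (Hgfac) had an unadjusted p under 0.05 against 1.90% of all. For the HGF effect in controls 0 passed where 0.404% were called, and 1 (Mst1) had an unadjusted p under 0.05 against 19.6% of all. For knockout against control without HGF 0 passed where 0.0599% were called, and 2 (Hgfac and Mst1) had an unadjusted p under 0.05 against 10.8%. With HGF, 0 passed where 0.0150% were called, and 1 (Spint2) had an unadjusted p under 0.05 against 9.58%. Averaged over conditions, 0 passed where 0.0150% were called, and 2 (Hgfac and Spint2) had an unadjusted p under 0.05 against 9.38%. For the interaction, 0 passed where 0.00% were called, and 1 (Mst1) had an unadjusted p under 0.05 against 10.8%. The 6 arrays of each genotype did not separate for any of the 6 genes, as they did for 0.748% of all tested probe sets.

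Hgfac encodes HGF activator, a serine protease made by hepatocytes that cleaves the HGF precursor, and had the largest genotype difference of the 6 genes. It was at 9.62, 10.33 and 9.82 in knockouts with HGF, against 10.08, 10.16 and 10.36 in controls with HGF. It was at 9.68, 9.49 and 9.31 in knockouts without HGF, against 10.26, 10.32 and 10.18 in controls without HGF. All but 1 of the 6 knockout arrays lay below every control array, the exception being knockout replicate 2 with HGF. Without HGF the groups did not overlap, and 12.1% of all tested probe sets were lower in knockouts in this way.

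Without HGF the knockout difference of Hgfac was -0.76 (SE 0.17, 95% interval -1.15 to -0.37), or 0.59 times the control level, with a limma adjusted p = 0.142. With HGF it was -0.28 (SE 0.17, limma adjusted p = 0.607), and averaged over both conditions it was -0.52 (SE 0.12, limma adjusted p = 0.193). Without both knockout replicate 2 arrays these values were -0.76 (adjusted p = 0.0349), -0.48 (adjusted p = 0.412) and -0.62 (adjusted p = 0.0384), in contrasts where 2.69%, 0.0299% and 0.853% of probe sets were called. With array weights the difference without HGF was -0.68 (adjusted p = 0.0495) and the averaged one -0.60 (adjusted p = 0.0211), where 2.24% and 3.62% of probe sets were called. These weights came from the same arrays and their labels, so this fit is not independent of the fit without the replicate 2 arrays. They were 3.05, 0.50 and 0.40 for knockouts with HGF and 0.27 for knockout replicate 2 without HGF. The difference kept its sign under each setting tried, and its adjusted p without HGF ran from 0.0349 to 0.465. The HGF effect on Hgfac was 0.43 in knockouts (SE 0.17, limma adjusted p = 1.00) and -0.05 in controls (SE 0.17, limma adjusted p = 0.899). Their difference, the interaction, was 0.48 (SE 0.25, limma adjusted p = 0.518), and the HGF effect in knockouts was 0.23 without the replicate 2 arrays.

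The summed linear intensity of hepatocyte markers was 89577 to 93909 in knockouts without HGF, against 95404 to 96020 in controls without HGF, and 91300 to 93318 in knockouts with HGF, against 92814 to 98365 in controls with HGF. The ranges did not overlap without HGF and overlapped with HGF. Alb, the highest marker, had the same log2 value of 14.5251 on several arrays, at the top of the measured range. The sum is thus a coarse measure of hepatocyte content. The median difference of the 8 tested hepatocyte markers without HGF was -0.08, against -0.03 over all tested probe sets, with 1 positive (Tat, tyrosine aminotransferase, 0.31). Limma called 0 of 8, and 0 had an unadjusted p under 0.05, against 0.0599% and 10.8% of all tested probe sets. The difference of Hgfac was -0.76. The part of hepatocyte content in the difference of Hgfac was not tested further.

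Hpn encodes hepsin, a membrane serine protease of hepatocytes that can also cleave the HGF precursor. Its levels were 10.92, 11.11 and 10.83 in knockouts with HGF and 11.21, 10.81 and 10.96 in knockouts without HGF, against 10.98, 10.98 and 11.08 in controls with HGF and 10.93, 10.95 and 10.90 in controls without HGF. The 12 arrays spanned 0.40 on the log2 scale. The averaged knockout difference was 0.00 (SE 0.08, 95% interval -0.18 to 0.19, limma adjusted p = 0.995). St14, which encodes matriptase, an epithelial protease that cleaves the same precursor, stayed between 2.08 and 2.68 on all 12 arrays and below the filter.

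Other proteases and inhibitors that act on HGF, on its activators or in the plasma cascades around them were read as a list of 20 genes. Of these, 19 were measured and 13 tested. Limma called 0 of 13 in each of the 6 contrasts, where 0.00% to 0.404% of all tested probe sets were called. An unadjusted p under 0.05 was seen for 0 to 2 of the 13, against 1.90% to 19.6% of all tested probe sets. The 2 were for the knockout effect without HGF, where that share was 10.8%. Without HGF all 13 had a negative knockout difference, with a median of -0.17 against -0.03 over all tested probe sets. The largest were those of Serpind1, the heparin cofactor II gene (-0.33, SE 0.11, limma adjusted p = 0.316), and F12, coagulation factor XII (-0.28, SE 0.11, limma adjusted p = 0.395). F2, the prothrombin gene, whose product thrombin cleaves and activates the HGF activator, had a difference of -0.18 (SE 0.09, limma adjusted p = 0.500), and Plg, the plasminogen gene, one of -0.19 (SE 0.10, limma adjusted p = 0.529). With HGF the 13 genes had a median of -0.01 with 6 positive and 7 negative, and of -0.07 with 3 positive and 10 negative without both knockout replicate 2 arrays.

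**Figure D3:**
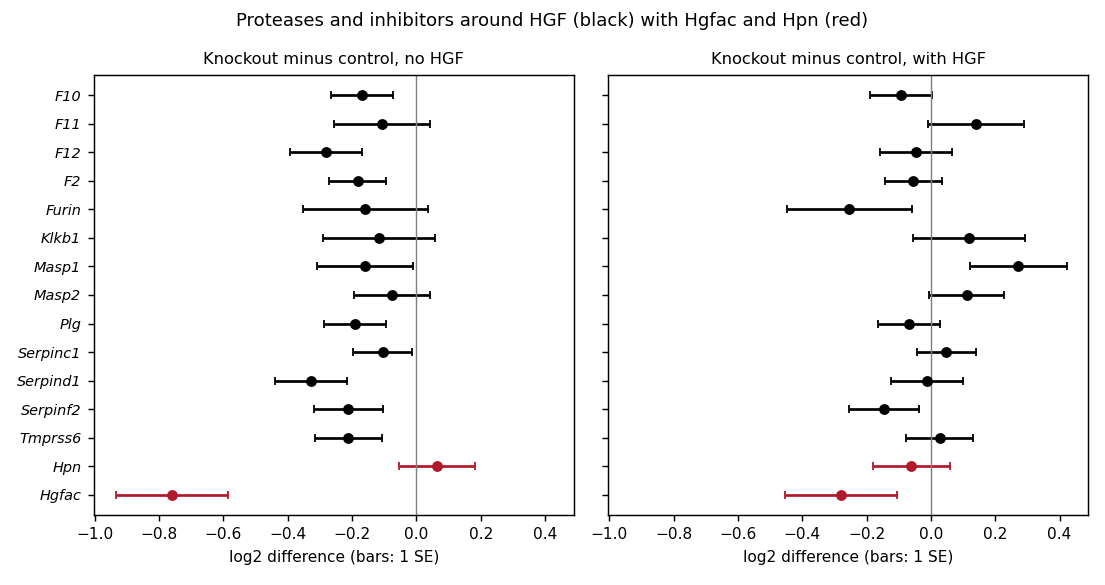
Log2 difference of knockout minus control livers, without HGF (left) and with HGF (right), for the 13 tested proteases and inhibitors around HGF and for Hgfac and Hpn, with bars of 1 SE. Without HGF all 13 lie below 0, between -0.33 and -0.08, and Hgfac lies at -0.76.

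Spint2 encodes HAI-2, a membrane Kunitz-type inhibitor of HGF activator, hepsin and matriptase. It was at 8.83, 8.995 and 8.90 in knockouts with HGF, against 8.57, 8.60 and 8.75 in controls with HGF. It was at 8.98, 8.92 and 8.79 in knockouts without HGF, against 8.81, 8.92 and 8.78 in controls without HGF. With HGF the knockouts all lay above the controls, as did 8.81% of tested probe sets, and the difference was 0.27 (SE 0.10, 95% interval 0.05 to 0.49, limma adjusted p = 0.495). Without HGF it was 0.06 (SE 0.10, limma adjusted p = 0.882). In controls the arrays with HGF lay below those without, as did 23.7% of tested probe sets. The difference was -0.19 (SE 0.10, limma adjusted p = 0.307), against 0.01 in knockouts (SE 0.10, limma adjusted p = 1.00). Spint1, which encodes the related inhibitor HAI-1, lay between 1.96 and 2.30 on all 12 arrays.

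Mst1 was the 1 gene of the 6 whose groups with and without HGF did not overlap in either genotype, in opposite directions; the fitted HGF effects of Met, Hgfac, Hpn and Spint2 also differed in sign between genotypes. In knockouts it was at 9.82, 9.86 and 9.75 with HGF, against 9.71, 9.67 and 9.17 without HGF. In controls it was at 9.41, 9.63 and 9.78 with HGF, against 9.92, 10.02 and 9.90 without HGF. The HGF effect was 0.29 in knockouts (SE 0.15, limma adjusted p = 1.00) and -0.34 in controls (SE 0.15, limma adjusted p = 0.248). Of all tested probe sets, 2.56% were higher with HGF without overlap in knockouts and 23.7% lower in controls. With the labels of the knockout replicate 2 arrays exchanged, the knockout groups would overlap.

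The interaction for Mst1 was 0.63 (SE 0.21, 95% interval 0.16 to 1.11), with a limma adjusted p = 0.377. The knockout difference was -0.43 without HGF (SE 0.15, limma adjusted p = 0.332) and 0.20 with HGF (SE 0.15, limma adjusted p = 0.665). The value of 9.17 on knockout replicate 3 without HGF was the lowest of the 12 arrays, and without that array the difference without HGF was -0.26 and the HGF effect in knockouts 0.12. Mst1r, the receptor gene for this ligand, stayed between 1.94 and 2.23 on all 12 arrays.

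**Figure D4:**
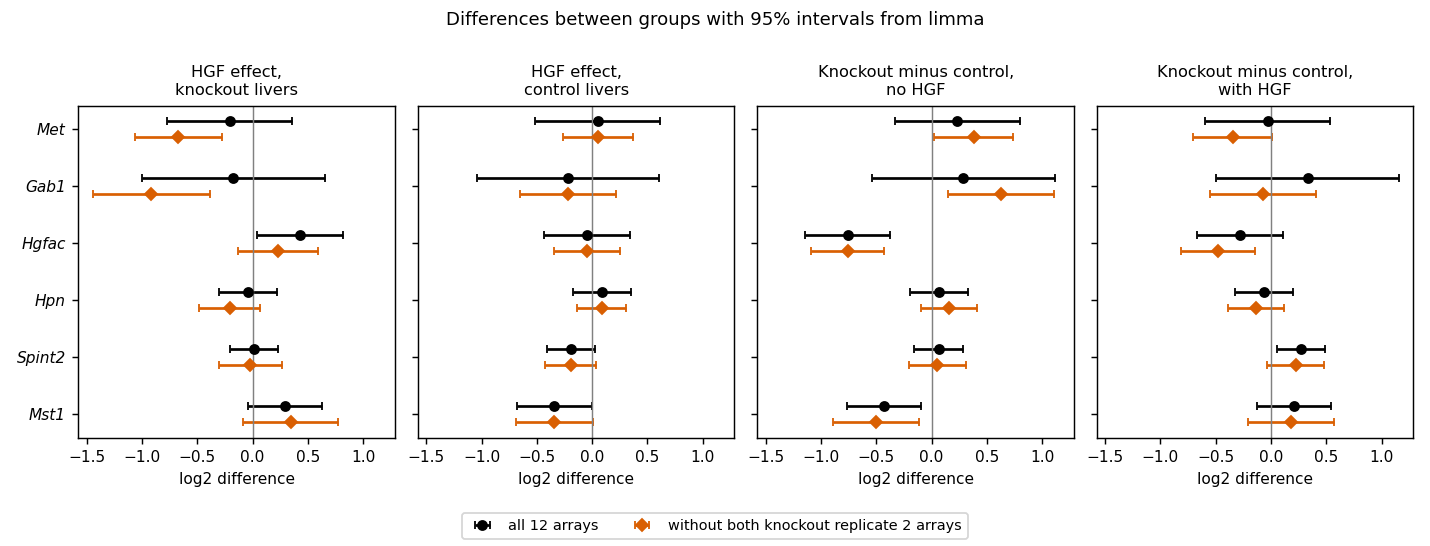
Log2 difference and 95% interval from limma for the 6 tested genes in 4 contrasts, over all 12 arrays (black circles) and without both knockout replicate 2 arrays (orange diamonds). Hgfac without HGF has the interval farthest from 0, and the HGF effects on Met and Gab1 in knockouts move with the replicate 2 arrays, which were picked by their response.

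The HGF effects on Met and Gab1 in knockouts moved with the replicate 2 arrays. Over all arrays they were -0.21 for Met (SE 0.25, limma adjusted p = 1.00) and -0.18 for Gab1 (SE 0.37, limma adjusted p = 1.00). Without both replicate 2 arrays they were -0.67 for Met and -0.92 for Gab1, values that follow in part from the choice of arrays, since both genes were low where the response index was high. In controls Met differed by 0.05 between the HGF states (SE 0.25, limma adjusted p = 0.933). The interaction for Met was -0.26 over all arrays (SE 0.36, limma adjusted p = 0.839) and -0.73 without the 2 arrays.

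Hgf, the ligand gene, which in liver is expressed chiefly by stellate and endothelial cells, was close to background. Its levels were 3.92, 3.58 and 3.24 in knockouts with HGF and 3.78, 3.39 and 4.62 in knockouts without HGF, against 3.58, 3.31 and 3.24 in controls with HGF and 3.54, 3.55 and 3.47 in controls without HGF. Only knockout replicate 3 without HGF exceeded 4. In a fit with no filter the knockout difference without HGF was 0.41 (SE 0.27, limma adjusted p = 0.757). The injected protein itself is not measured by these arrays.

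The summed linear intensity of stellate cell and fibroblast markers was 2260 to 2663 in knockouts without HGF, against 1631 to 1925 in controls without HGF. Of the 10 listed, 6 were tested, and Des, Pdgfrb, Col1a1 and Col1a2 were below the filter. All 6 tested members had a positive difference, with a median of 0.41 and 0 called by limma. By limma 4 of them had an unadjusted p under 0.05, against 10.8% of all tested probe sets. The collagen gene Col3a1 had 0.86 (SE 0.25, limma adjusted p = 0.248) and the proteoglycan gene Dcn 0.37 (SE 0.12, limma adjusted p = 0.287). With HGF the 6 had a median of 0.15, with 4 positive and 2 negative, and the sums were 1854 to 2140 in knockouts against 1737 to 1914 in controls. Sinusoidal endothelial markers, all 8 tested, had a median knockout difference of -0.04 without HGF, with 3 positive. Kupffer cell markers, all 8 tested, had a median of -0.49 without HGF, with 0 positive. Limma called 0 of either list, where 0.0599% of all tested probe sets were called. An unadjusted p under 0.05 was seen for 0 and 2 of them, against 10.8% of all. The part of these cells in the level of Hgf was not tested. In the fit with no filter the differences of St14, Spint1 and Mst1r lay between -0.15 and 0.17 in all 6 contrasts, with limma adjusted p of 0.591 or more. That fit called 0 of the 4 genes below the filter; over all probe sets it called 0.00% and 0.0789% for the HGF effect in knockouts and in controls. It called 0.0364%, 0.00607% and 0.00607% for the knockout effect without HGF, with HGF and averaged, and 0.00% for the interaction. The smallest unadjusted p of the 4 genes was 0.139, for Hgf averaged over both conditions.

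**Figure D5:**
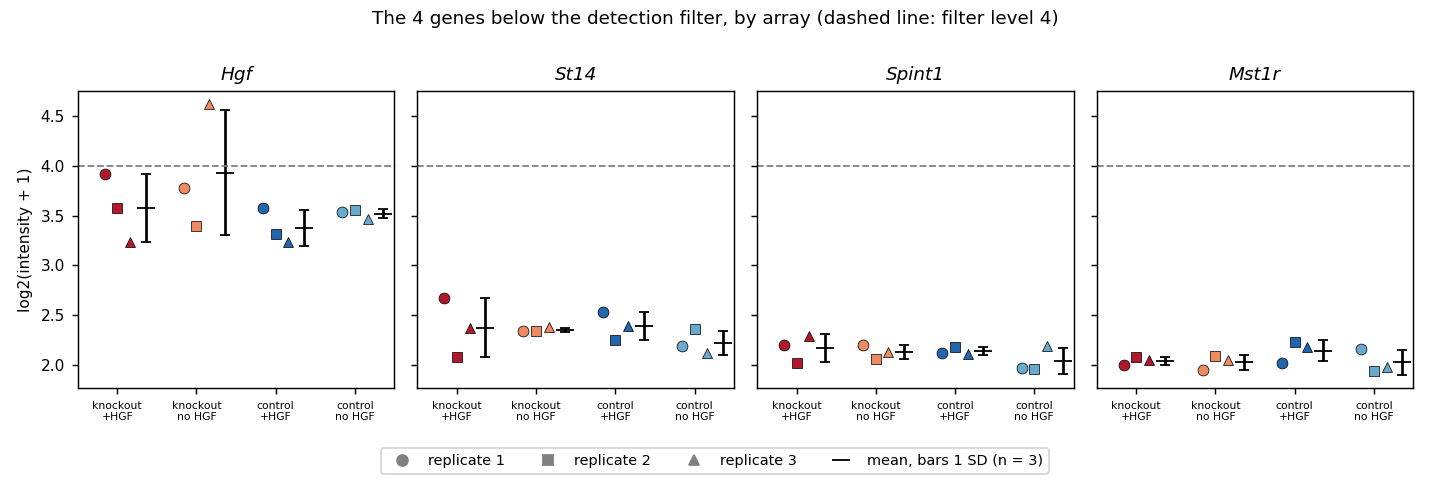
Log2(intensity + 1) of the 4 genes below the filter on each array, with the mean and 1 SD (n = 3) and a dashed line at the filter level of 4. The line is exceeded by 1 value, that of Hgf on knockout replicate 3 without HGF, at 4.62.

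Genes downstream of the receptor were read from a list of 57 adaptors, kinases, phosphatases and partners of Met, of which 49 were measured and 29 tested. Limma called 0 of 29 in each contrast, where 0.00% to 0.404% of all tested probe sets were called. At an unadjusted p under 0.05 there were 10 for the HGF effect in controls and 0 for that in knockouts. Of all tested probe sets, 19.6% and 1.90% had such a p. The knockout contrast includes both replicate 2 arrays, which stood against their HGF labels, so its 0 cannot be read as a missing response. The median HGF effect of the 29 genes in knockouts was 0.05 over all arrays. Without both replicate 2 arrays it was 0.21, given with no test. The 10 include Plxnb1, which passed the filter through the controls with HGF alone, so its p-value is no support. In controls the smallest p-values belonged to Ptpn2, a tyrosine phosphatase gene (1.80, SE 0.44, limma adjusted p = 0.0935), Lrig1, a negative regulator of receptor tyrosine kinases (1.70, SE 0.43, limma adjusted p = 0.0977), and Errfi1, an inhibitor of ErbB receptors (1.06, SE 0.33, limma adjusted p = 0.133). Lrig1 was at 7.31, 7.21 and 6.96 in controls with HGF, against 5.48, 5.42 and 5.48 in controls without HGF. In knockouts it was at 5.60, 5.60 and 6.63 with HGF, against 5.54, 7.02 and 5.16 without HGF. The knockout spread thus entered the pooled error of the control contrast.

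With only the 6 control arrays in the fit, limma called 10 of the 29, 9 higher and 1 lower with HGF, where 801 of 6683 tested probe sets (12%) were called. The 9 were Lrig1, Ptpn2, Ptpn1 (1.48), Stat3 (1.14), Fas (1.40), Errfi1, Adam17 (0.69), Ranbp9 (0.67) and Plxnb1 (0.60), and the ERK phosphatase gene Dusp6 had -0.88. Plxnb1 had passed the filter through the controls with HGF alone, so its call is no support. The list was chosen with earlier results of these data known, so the count is a description and not a test against the 12%. In that fit 0 of the 6 genes of the receptor axis itself were called by limma, with the smallest adjusted p, 0.120, for Mst1.

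Plxnb1, which encodes a semaphorin receptor that can associate with Met, lay near the filter. It was at 3.51, 3.17 and 3.66 in knockouts with HGF, against 4.42, 4.52 and 4.11 in controls with HGF. It was at 3.28, 3.71 and 2.97 in knockouts without HGF, against 3.86, 3.86 and 3.54 in controls without HGF. It was at or above 4 in the 3 controls with HGF alone and passed the filter through that group, so its difference between genotypes is given with no test, as -0.67 averaged over both conditions.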

How the data were processed

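Total RNA of cryopreserved liver was amplified once, biotinylated and put on 1 Affymetrix array per sample, per the labels' protocols. The authors deposited intensity values per probe set, linear as judged from their range. GCRMA, which corrects background and normalizes, is the tool named in the submitters' processing notes, without a version. The medians of the 12 arrays were 6.81 to 7.08. Of 16539 probe sets, 64 array controls were left out, and the annotation paired 15780 of the others with 1 symbol, 0 with several and 695 with none. Here 1 was added to each intensity before taking log2, which understates changes of genes near background, and 6683 probe sets passed the filter.

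Linear models with a mean per group (8 residual degrees of freedom) came from limma 3.58.1 (R 4.3.3) over all tested probe sets, with two-sided tests and Benjamini-Hochberg adjustment. The model was tested on simulated data. The members, lists and alternatives were chosen with earlier results of these data known. Besides the 10 genes, the rule allowed, from the 2 pathway lists, genes called in a contrast or the 4 with the smallest p per contrast, up to 3 nearest profiles per gene and any cell type marker; Lrig1's values by array, the genes called in other fits, Dbp and Cxcl1 were added after their values were seen. Groups and replicate numbers came from the titles. Same-numbered arrays with and without HGF had deviations from their group means that correlated at 0.12, -0.83 and -0.70 in knockouts. In controls these correlations were 0.10, 0.18 and 0.05. The knockout values carry the replicate 2 arrays that stood against their labels, so they cannot settle whether the arrays are pairs. Same-numbered arrays also have consecutive array numbers, so paired handling is possible. The main fit did not take the numbers as pairs, and a replicate block was tried as an alternative. Alternatives were another pseudocount (16), no filter, added quantile normalization, only the groups compared, trended robust moderation, array weights (gene by gene), a replicate block, each array left out and both knockout replicate 2 arrays left out. Nothing says whether the animals were littermates, and 3 arrays per group limit the precision.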

Additional observations from a re-analysis of the deposited data

Results flagged for a closer look

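Mst1 stood out because every array with HGF lay above every array without HGF in knockouts and below every one in controls. Of all tested probe sets, 2.56% were higher in this way in knockouts and 23.7% lower in controls. The knockout part rests on the labels of the replicate 2 arrays, at 9.86 with HGF and 9.67 without. With these labels exchanged, the knockout groups would overlap. The HGF effect in knockouts minus that in controls was 0.63 on the log2 scale (SE 0.21, limma adjusted p = 0.377, unadjusted p = 0.0137), so the difference did not pass the threshold when tested. It was 0.46 to 0.73 with any 1 array left out and 0.68 without both knockout replicate 2 arrays. Mst1 was flagged from these same values, so the unadjusted p carries that choice. The shares above are for each genotype alone, and the share of probe sets with both patterns was not counted.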

How the results depend on the processing

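With all 12 arrays, 0 of the 6 tested genes were called in each contrast, and leaving out 1 array at a time gave 0 to 0. The count became 1, Hgfac, with array weights (adjusted p = 0.0495 without HGF and 0.0211 averaged) and without both knockout replicate 2 arrays, in both cases for the knockout effect without HGF and averaged. Those fits called 2.24% and 3.62%, and 2.69% and 0.853%, of all probe sets. Some differences changed sign in other fits, and not all of these were near 0. The HGF effect on Spint2 in knockouts was -5.7e-05 with quantile normalization, -0.076 with array weights and -0.020 without the replicate 2 arrays. The averaged knockout effect on Hpn was -0.024 with quantile normalization, and the HGF effect on Hgfac in controls 0.013 with array weights. The knockout effect on Gab1 with HGF was 0.33 (SE 0.37) over all arrays and -0.073 without the replicate 2 arrays. The interaction of Gab1 was -0.28 with array weights and -0.70 without the replicate 2 arrays. With 1 array left out, sign changes gave ranges for the HGF effect in knockouts of -0.53 to 0.029 (Met), -0.58 to 0.18 (Gab1), -0.13 to 0.069 (Hpn) and -0.044 to 0.053 (Spint2), and in controls of -0.059 to 0.15 (Met) and -0.13 to 0.010 (Hgfac). For the knockout effect they were -0.043 to 0.16 (Hpn, without HGF), -0.35 to 0.21 (Met), -0.073 to 0.69 (Gab1) and -0.14 to 0.00043 (Hpn) with HGF, and -0.057 to 0.22 (Met) and -0.052 to 0.048 (Hpn) averaged; the Gab1 interaction ran from -0.36 to 0.40. The replicate block called 0 of the 6 genes in each contrast, where it called 0 or 1 of 6683 tested probe sets. For the HGF effect in controls it called 0 probe sets, against 27 in the main fit. That it changed no call of the 6 genes thus says little about their stability. Its adjusted p for Hgfac without HGF was 0.241. The other 264 member differences in other settings and 406 with 1 array left out kept their sign and side of the threshold. The causes were not tested. The signal of St14, Spint1 and Mst1r, at most 2.68, is too near background to show differences.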
